A study of Mus musculus with 61 samples.

Results

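The 8 genes described here make, store and break down monoamines, among the 46078 genes of a table of read counts from mouse pancreatic duct organoids. They were chosen by name: Tph1 and Tph2 (the tryptophan hydroxylases), Th (tyrosine hydroxylase), Ddc (aromatic amino acid decarboxylase), Slc18a1 and Slc18a2 (the vesicular monoamine transporters VMAT1 and VMAT2), and Maoa and Maob (the monoamine oxidases). Organoids are three-dimensional cultures of primary duct epithelium, here from C57BL/6 mice. They were infected with lentiviral vectors for doxycycline-inducible Ngn3, Pdx1 and MafA, 3 transcription factors used to reprogramme duct cells towards endocrine fates, and with the Tet-On 3G transactivator under the PGK promoter. Ngn3 was co-expressed with GFP, Pdx1 with LSSOrange and MafA with tdTomato, and pools of 50 cells were sorted by these colours after 8 days of doxycycline. Ngn3 was either wild type (WT) or 6SA, a phospho-mutant in which serines targeted by cyclin-dependent kinases are alanines. The 12 conditions were Pdx1, MafA, Pdx1+MafA, Ngn3+Pdx1, Ngn3+MafA and Ngn3+Pdx1+MafA, each sorted from WT and from 6SA cultures, so that even the cells without the Ngn3 colour came from cultures given Ngn3 virus and carried at least 1 other factor. Reporter colours do not fix equal amounts of the factors in the cells of a pool. Uninfected cells and cells with Ngn3 alone were not analysed here.

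Serotonin is made from tryptophan and dopamine from tyrosine, each by a hydroxylase that sets the rate of its pathway, and both products are then formed by the same decarboxylase, Ddc. VMAT1 and VMAT2 load the amine into secretory vesicles, where it is protected from the mitochondrial oxidases Maoa and Maob. Tph1 is the hydroxylase of enterochromaffin cells of the gut and of β-cells in pregnancy, where lactogens raise it, Tph2 is that of serotonergic neurons, and Th marks catecholamine cells and appears in some cells of the developing islet.

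After summing technical repeats there were 32 samples, 17 with the Ngn3 colour and 15 without it, in 2 or 3 biological replicates a condition. Counts on genes ranged from 2579583 to 19461008 per sample, and 3 of 61 libraries were left out for having under 1000000. Levels are counts per 1000000 (CPM) on TMM-scaled library sizes, and 3 counts, taken as the limit of detection, correspond to 0.136 to 1.01 CPM. Replicates 1 and 2 were from organoids at passage 2 and replicate 3 from passage 5. Neurog3, whose reads from the vector and from the endogenous gene cannot be told apart, was at 7.87 to 328.8 CPM in the Ngn3 samples and at 0 to 0.787 CPM in the others, so the colours and the transcript went together in every sample. Its level was 34.9 to 328.8 CPM in the 12 Ngn3 samples of passage 2 and 7.87 to 38.8 CPM in the 5 of passage 5, and that difference ran alongside several of the genes below. The sources do not say that replicates were separate infections, so p-values measure only the spread between these samples, which may be technical. In pools of cells, fewer cells expressing a gene and less RNA per cell cannot be told apart.

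Of the 4 synthesis enzymes, Th, Ddc and Tph1 rose with Ngn3, while Tph2, the transporters and the oxidases were not called changed. These calls are over the 3 combinations and both cultures, and make 3 of the 8 genes beside 11.1% of the 24004 genes tested called higher. None of the 8 was called lower. Changes were tested with edgeR's quasi-likelihood test in 1 model of all 12 conditions, with Benjamini-Hochberg adjustment over all genes and a threshold of 0.05, and all 8 genes passed the filter on low values. The median fitted log2 fold change was 1.24 over the 8 genes and 0.07 over all genes, the former resting in part on Tph2, whose fitted value is no measure because conditions had no count. In the plot of all 8 genes by sample, the bright cells of Th, Ddc and Tph1 lie to the right of the thick white line, and Slc18a2 and Maoa have similar shades on either side of it.

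**Figure D1:**
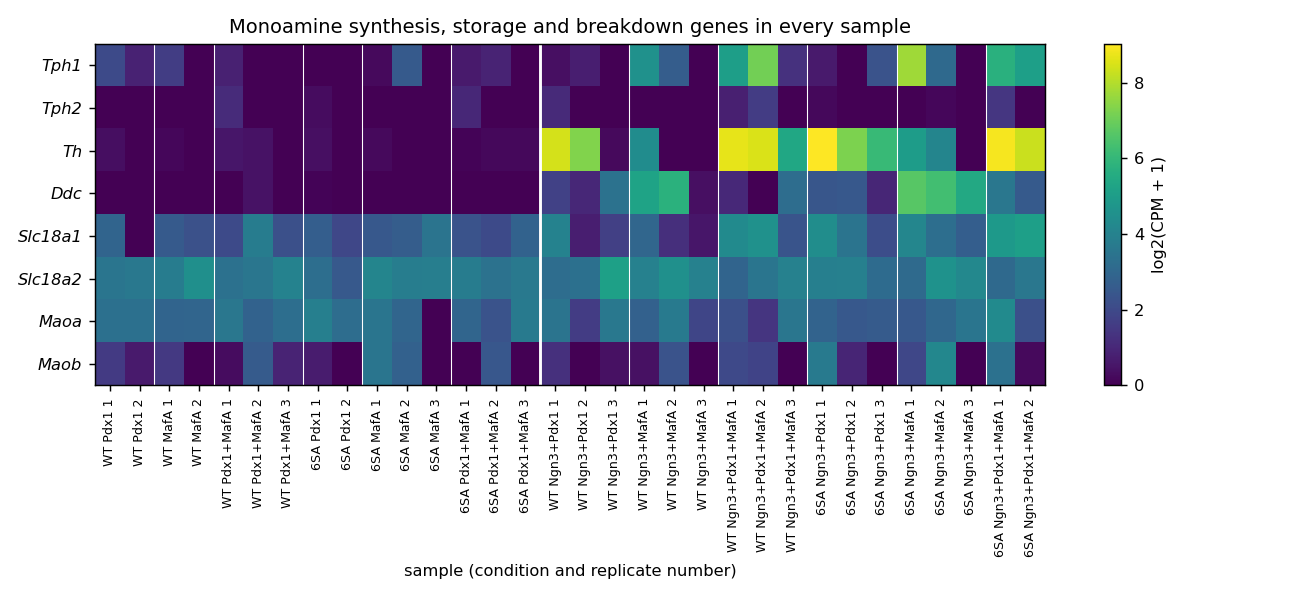
Level of each of the 8 genes (vertical axis) in each of the 32 samples (horizontal axis, condition and replicate number) as log2(CPM + 1), from dark (0) to yellow (highest); the thick white line separates the 15 samples without Ngn3 from the 17 with it. Th reaches 519.5 CPM on the right and stays at or below 0.460 CPM on the left.

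Th, the rate-limiting enzyme of catecholamine synthesis (chromosome 7, 142892752 to 142931128 on GRCm38, minus strand), reached the highest level of the 8 genes. In Ngn3+Pdx1+MafA samples it was at 410.3, 360.3 and 40.5 CPM in WT replicates 1 to 3 and at 478 and 313 CPM in the 2 6SA samples. In Ngn3+Pdx1 samples it was at 349.8, 157 and 0.164 CPM in WT and at 519.5, 149.8 and 65.9 CPM in 6SA. In Ngn3+MafA samples it was at 19.9, 0 and 0 CPM in WT and at 30.4, 16.1 and 0 CPM in 6SA. Th was therefore high wherever Pdx1 accompanied Ngn3, except in WT Ngn3+Pdx1 replicate 3 at 1 count, and low or undetected where MafA was the only partner. Without Ngn3 it lay between 0 and 0.460 CPM with a median of 0.107 CPM and no more than 6 counts in any sample. The counts passed 3 in 13 of 17 Ngn3 samples and in 2 of 15 others. Pooled over samples the Ngn3 level was 1336-fold higher, with a counting interval of 890.1 to 2107 that rests on 23 counts without Ngn3 and covers counting error only. The fitted log2 fold change was 9.17 ± 1.02 (SE), with an adjusted p of 1.3e-07 by edgeR. Leaving out WT Ngn3+MafA replicate 1 left that condition at 0 and the average over conditions without a usable value (adjusted p = 1 by edgeR), whereas Th was called in each of the other 31 fits that left out a sample. A fit with a single Ngn3 term, added after the data were seen, does not average over such conditions and called Th too.

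Ddc, the decarboxylase shared by the serotonin and catecholamine pathways (chromosome 11, 11814101 to 11898144, minus strand), was close to undetected without Ngn3. Of 15 such samples, 13 had no count, WT Pdx1+MafA replicate 2 had 2 counts and 6SA Pdx1 replicate 1 had 1 count. In Ngn3+MafA samples Ddc was at 36.6, 52.7 and 0.302 CPM in WT and at 100.6, 77.1 and 42.9 CPM in 6SA. In Ngn3+Pdx1 samples it was at 2.36, 1.01 and 9.51 CPM in WT and at 4.395, 4.53 and 0.955 CPM in 6SA. In Ngn3+Pdx1+MafA samples it was at 1.05, 0 and 8.38 CPM in WT and at 11.1 and 4.86 CPM in 6SA. Ddc was thus highest in the combination where Th was lowest, and WT Ngn3+MafA replicate 3 stood far below the other 5. Ddc had over 3 counts in 14 of 17 Ngn3 samples and in 0 of 15 others. The pooled level was 1093-fold higher with Ngn3, with a counting interval of 374 to 5300 on the 3 reference counts. The adjusted p was 8.68e-07 by edgeR. No fitted fold change is given for Ddc against samples without Ngn3, because 4 of those 6 conditions had no count and its size then depends on a prior count. Ddc was called in all 32 fits that left out a sample.

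Tph1, the peripheral tryptophan hydroxylase (chromosome 7, 46644641 to 46672537, minus strand), was found in fewer samples and varied more between replicates. In Ngn3+Pdx1+MafA samples it was at 32.2, 137 and 1.46 CPM in WT and at 51.6 and 32.8 CPM in 6SA. In Ngn3+MafA samples it was at 22.4, 5.35 and 0 CPM in WT and at 213, 7.58 and 0 CPM in 6SA. In Ngn3+Pdx1 samples it was at 0.277, 0.674 and 0 CPM in WT and at 0.589, 0 and 3.98 CPM in 6SA. High Tph1 was seen where MafA accompanied Ngn3, and at passage 2, and the Ngn3+Pdx1 samples did not stand above the samples without Ngn3. Those ran from 0 to 4.86 CPM with a median of 0.173 CPM, and 6 of the 15 had over 3 counts, against 12 of 17 with Ngn3. The mean was 29.9 CPM ± 58.1 (SD, n = 17) with Ngn3 and 0.887 CPM ± 1.42 (SD, n = 15) without. The fitted log2 fold change was 4.36 ± 1.01, whose size depends in part on a prior count since 6SA Pdx1 had no count, with an adjusted p of 0.00213 by edgeR, and Tph1 was called in all 32 fits that left out a sample.

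**Figure D2:**
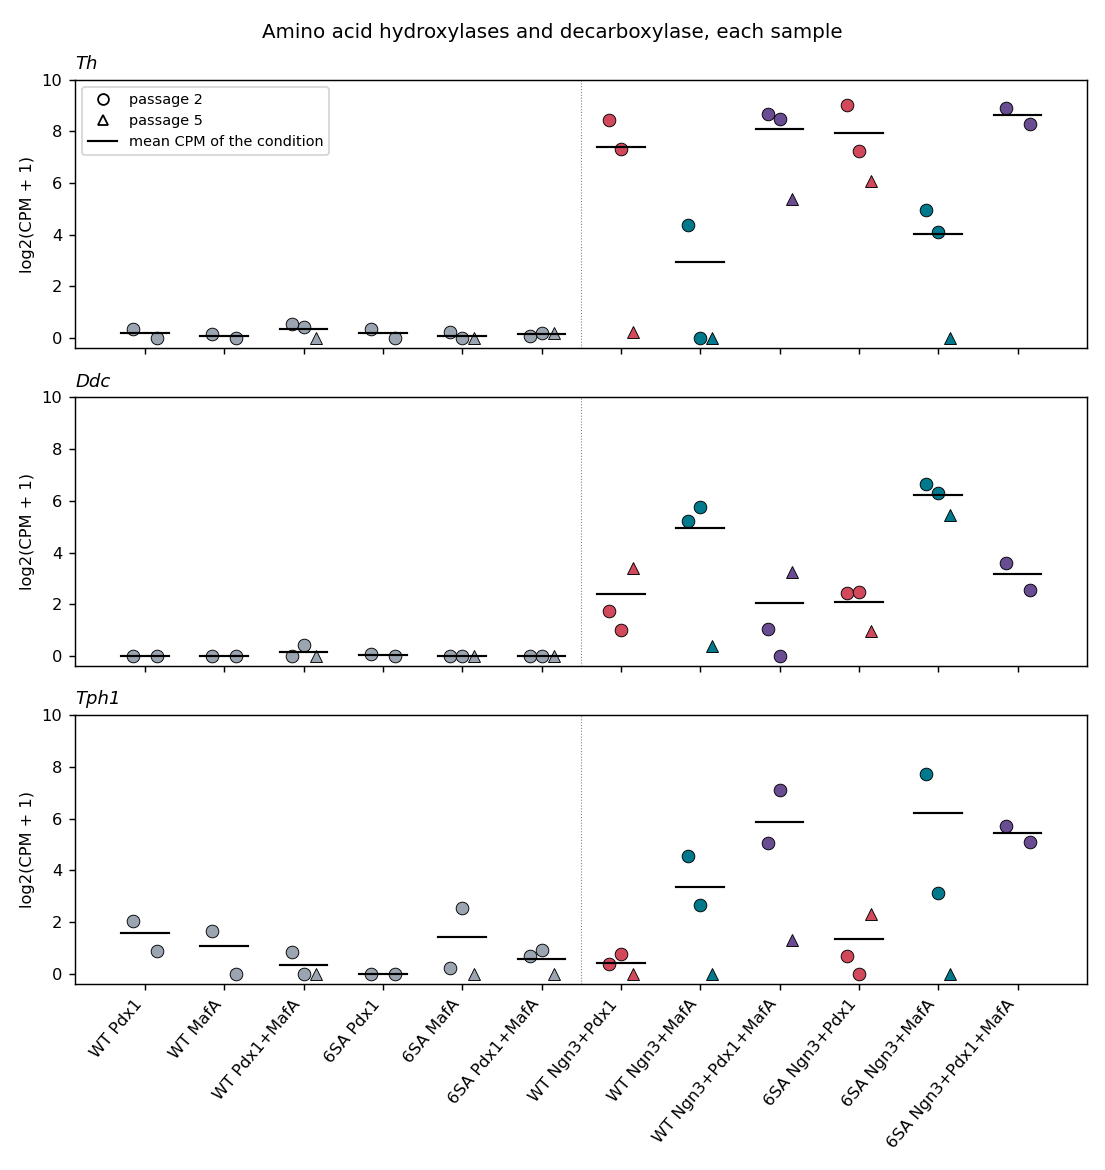
Level of Th, Ddc and Tph1 (vertical axes, log2(CPM + 1)) in each sample of the 12 conditions (horizontal axis); circles are passage 2, triangles passage 5, bars the mean CPM of the condition, and the dotted line separates conditions without and with Ngn3. Th is highest with Pdx1 beside Ngn3, Ddc with MafA alone beside Ngn3 and Tph1 with MafA beside Ngn3, and triangles often lie lowest.

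Tph2, the neuronal tryptophan hydroxylase (chromosome 10, 115078641 to 115185022, minus strand), did not exceed 2.05 CPM in any sample. It had over 3 counts in 4 of 17 Ngn3 samples and in 3 of 15 others, and both MafA conditions and WT Ngn3+MafA were at 0 in every sample. The test over all conditions therefore gave Tph2 no usable fold change. Tph2 passed the test in no comparison as fitted, and without the gene filter it was called in the 3 factors against Ngn3+MafA (adjusted p = 0.0428 by edgeR).

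The promoters of the 3 genes that rose are shown because these genes moved with the same factor. They are the 250 bases before each transcription start given by RefSeq on GRCm38.p6, where 6 of the 8 genes had an entry (Slc18a1 and Maob had none). Each is written 5′ to 3′ on the minus strand, which carries all 3 genes, with matches to the motifs named after them in capitals. The Th start lies inside the span of the gene given above.
Th, chr7:142899996-142900245: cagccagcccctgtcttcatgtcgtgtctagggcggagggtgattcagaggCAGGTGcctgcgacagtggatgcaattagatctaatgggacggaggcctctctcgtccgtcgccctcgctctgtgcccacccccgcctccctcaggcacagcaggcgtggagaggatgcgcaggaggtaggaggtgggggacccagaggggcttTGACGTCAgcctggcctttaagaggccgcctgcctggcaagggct
Ddc, upstream start, chr11:11898145-11898394: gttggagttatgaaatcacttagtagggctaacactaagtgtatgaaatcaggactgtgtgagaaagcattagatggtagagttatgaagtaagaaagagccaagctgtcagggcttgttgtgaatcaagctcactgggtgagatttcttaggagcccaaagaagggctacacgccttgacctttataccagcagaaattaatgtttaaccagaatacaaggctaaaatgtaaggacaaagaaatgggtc
Ddc, downstream start, chr11:11890409-11890658: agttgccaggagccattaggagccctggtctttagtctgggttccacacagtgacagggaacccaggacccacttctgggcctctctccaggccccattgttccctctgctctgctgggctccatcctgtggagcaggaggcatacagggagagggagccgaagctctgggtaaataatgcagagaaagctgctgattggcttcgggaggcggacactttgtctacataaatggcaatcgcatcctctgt
Tph1, upstream start, chr7:46672538-46672787: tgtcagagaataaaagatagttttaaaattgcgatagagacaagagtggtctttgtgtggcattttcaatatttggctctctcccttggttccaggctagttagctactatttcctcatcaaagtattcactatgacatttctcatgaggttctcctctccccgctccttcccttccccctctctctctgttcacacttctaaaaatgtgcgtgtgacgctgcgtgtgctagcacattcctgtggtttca
Tph1, downstream start, chr7:46667378-46667627: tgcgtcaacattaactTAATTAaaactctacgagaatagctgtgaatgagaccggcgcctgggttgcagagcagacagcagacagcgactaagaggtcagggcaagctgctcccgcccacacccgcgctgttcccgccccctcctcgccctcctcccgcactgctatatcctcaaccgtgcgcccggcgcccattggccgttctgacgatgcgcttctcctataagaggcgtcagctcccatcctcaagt
The motifs were the E-box bound by Ngn3-type factors (CANNTG), the cAMP response element (TGACGTCA), a homeodomain core (TAATTA) and a short MafA-type element (TGCTGAC), searched on both strands, of which the cAMP response element and the MafA-type element can share bases. Th held the E-box CAGGTG 199 to 194 bases and the cAMP response element 45 to 38 bases before its start. The downstream Tph1 start held TAATTA 234 to 229 bases before it, and 3 of the 5 promoters held none of these letters. Of 32851 mouse promoters of this length, 66.2% held CANNTG, 1.55% TGACGTCA, 4.84% TAATTA and 3.81% TGCTGAC. A match is a description of the letters and not a binding site.

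With the partner factor held fixed, Th and Ddc rose where Ngn3 was added to Pdx1, 2 of 8 genes beside 1.32% of all genes called higher. The fitted log2 fold change of Th was 10.03 ± 1.83 (adjusted p = 0.0021 by edgeR), and the adjusted p of Ddc was 0.0355 by edgeR. Every Ngn3+Pdx1 sample had more Ddc (0.955 to 9.51 CPM) than every Pdx1 sample (0 to 0.056 CPM), although Pdx1 held only 1 count in all. The pooled Ddc ratio on that count was 162-fold, with a counting interval of 29.1 to 6415. Tph1 was at 0 to 3.98 CPM with Ngn3 and at 0 to 3.06 CPM without, a difference that did not pass the test (adjusted p = 0.848 by edgeR). The call of Th was lost without any 1 of the 4 Pdx1 samples (adjusted p up to 0.0658 by edgeR), and that of Ddc without any 1 of those 4, of 6SA Ngn3+Pdx1 replicates 1 and 2 or of WT Ngn3+Pdx1 replicate 3 (adjusted p up to 0.232 by edgeR).

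Th and Ddc also rose where Ngn3 was added to MafA, 2 of 8 genes beside 2.5% of all genes called higher. No MafA sample had a Ddc count. Against 3 counts pooled over those samples, Ddc was at least 793-fold higher in Ngn3+MafA, and its adjusted p was 0.000513 by edgeR. The groups did not overlap, and the call held in all 32 fits that left out a sample, but not without replicate 2 in all conditions. Th was at 0 to 30.4 CPM (median 8.05) with Ngn3 and at 0 to 0.173 CPM with MafA alone, a fitted log2 fold change of 6.67 ± 1.76 (adjusted p = 0.0235 by edgeR), and the groups overlapped because 3 of 6 Ngn3+MafA samples were at 0. That call was lost without 6SA MafA replicate 1, WT MafA replicate 1 or 2, or WT Ngn3+MafA replicate 1 (adjusted p up to 1 by edgeR). Tph1 was at 0 to 213 CPM (median 6.46) against 0 to 4.86 CPM, a fitted log2 fold change of 4.18 ± 1.54 that missed the threshold (adjusted p = 0.136 by edgeR). At passage 2 alone Tph1 passed it (adjusted p = 0.0215 by edgeR), where the Ngn3+MafA samples were at 5.35 to 213 CPM, and both passage 5 samples were at 0.

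Th, Ddc and Tph1 rose where Ngn3 was added to Pdx1+MafA, 3 of 8 genes beside 9.42% of all genes called higher. Th lay at 40.5 to 478 CPM with the 3 factors and at 0 to 0.460 CPM in Pdx1+MafA, without overlap (fitted log2 fold change 10.80 ± 1.57, adjusted p = 2.11e-05 by edgeR). Tph1 lay at 1.46 to 137 CPM against 0 to 0.867 CPM, also without overlap (6.92 ± 1.58, adjusted p = 0.0029 by edgeR). Ddc overlapped at 0, with 0 to 11.1 CPM against 0 to 0.349 CPM (adjusted p = 0.00121 by edgeR). All 3 calls held in each of the 32 fits that left out a sample, but that of Tph1 was lost without replicate 2 in all conditions. Slc18a1 missed the threshold here (2.02 ± 0.78, adjusted p = 0.0703 by edgeR), with 4 of 5 samples of the 3 factors above the highest Pdx1+MafA sample. These comparisons and the one over all combinations share samples and are not separate support for one another.

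**Figure D3:**
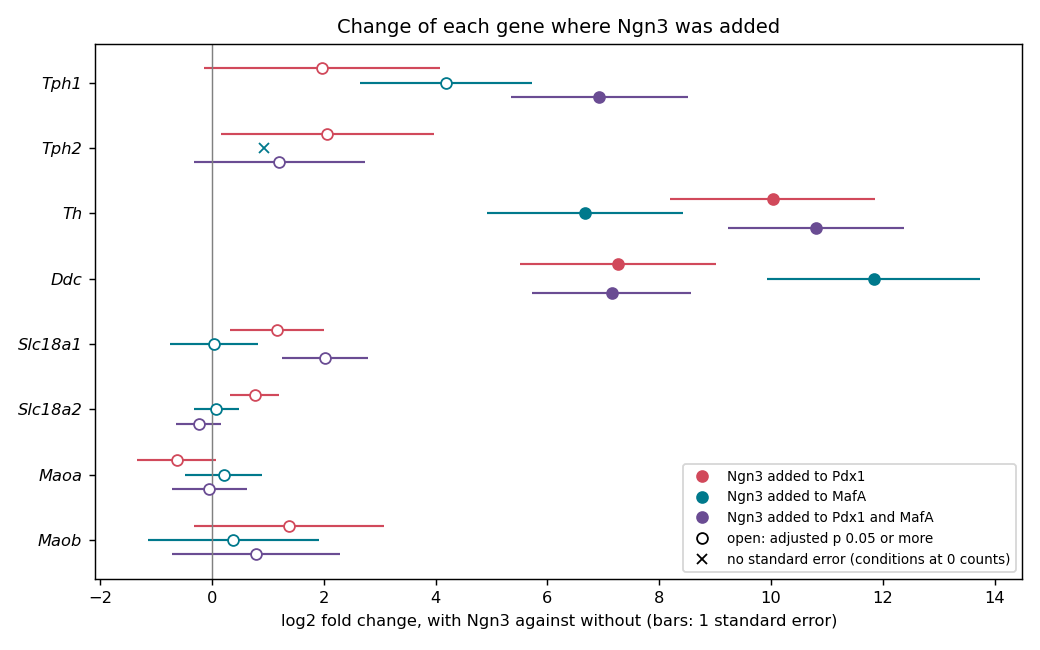
Fitted log2 fold change of each of the 8 genes (vertical axis) where Ngn3 was added to Pdx1, to MafA and to both (colours), with bars of 1 standard error; filled points passed an adjusted p of 0.05, open points did not, and crosses have no standard error because conditions were at 0 counts. The places of Ddc, and of Tph1 and Tph2 where Ngn3 was added to Pdx1, depend on a prior count, as conditions without Ngn3 had no count. Th and Ddc are filled in all 3 colours, Tph1 only where Ngn3 was added to both.

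Whether the effect of Ngn3 differed between the 3 combinations was tested directly, and 0 of 8 genes passed, beside 0.0333% of all genes. At an unadjusted p under 0.05 there were 0 of the 8 genes and 1833 of all genes by edgeR, and DESeq2 called 0 of the 8. The unadjusted p was 0.560 for Th and 0.370 for Tph1 in that edgeR test, and with MafA at 0 counts it was 1 for Ddc. The differences between combinations given next are therefore differences in level among Ngn3 samples, not tested differences in response.

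Among Ngn3 samples, the partner went with the level of the hydroxylases. The 3 factors against Ngn3+MafA, that is Pdx1 added, gave Th as 1 of 8 genes called, beside 1.17% of all genes called higher. All 5 samples of the 3 factors (40.5 to 478 CPM) were above all 6 of Ngn3+MafA (0 to 30.4 CPM), and the fitted log2 difference was 4.98 ± 1.15 (adjusted p = 0.0186 by edgeR). Without 6SA Ngn3+MafA replicate 2, 6SA Ngn3+Pdx1+MafA replicate 1 or WT Ngn3+MafA replicate 2 the adjusted p rose to at most 0.0584 by edgeR. Ddc ran the other way, at 0 to 11.1 CPM with the 3 factors against 0.302 to 100.6 CPM (median 47.8), a fitted difference of -3.23 ± 1.05 that missed the threshold (adjusted p = 0.0966 by edgeR). At passage 2 alone the Ddc difference passed it (-4.93, adjusted p = 0.00237 by edgeR).

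The 3 factors against Ngn3+Pdx1, that is MafA added, gave Tph1 as 1 of 8 genes called, beside 0.525% of all genes called higher. The levels were 1.46 to 137 CPM (median 32.8) against 0 to 3.98 CPM (median 0.433), and 4 of 5 samples of the 3 factors lay above every Ngn3+Pdx1 sample. The fitted log2 difference was 6.27 ± 1.57 (adjusted p = 0.033 by edgeR), and it was 7.28 at passage 2 alone (adjusted p = 0.00365 by edgeR). It was not called with the replicate number as a block or without replicate 2 in all conditions, as given in the section on processing. The call was lost in 8 of the 32 fits that left out a sample (adjusted p up to 0.111 by edgeR), namely without 6SA Ngn3+Pdx1 replicate 1 or 2, any of the 3 WT Ngn3+Pdx1 samples, either 6SA Ngn3+Pdx1+MafA sample or WT Ngn3+Pdx1+MafA replicate 2. Th did not differ beyond its error (0.68 ± 1.01, 95% interval -1.29 to 2.65), nor did Ddc (0.39 ± 0.93, 95% interval -1.44 to 2.22).

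Ngn3+Pdx1 and Ngn3+MafA were compared directly, and 0 of 8 genes passed, beside 0.133% of all genes. At an unadjusted p under 0.05 there were 3 of the 8 genes and 2065 of all genes by edgeR, and DESeq2 called 1 of the 8, Ddc. The 3 were Th (log2 difference 4.30 ± 1.10, adjusted p = 0.118 by edgeR), Ddc (-3.62 ± 0.96, adjusted p = 0.17 by edgeR) and Tph1 (-5.37 ± 1.502, adjusted p = 0.188 by edgeR). Passage moved with this result. At passage 2, where each group has 4 samples, Th was at 149.8 to 519.5 CPM with Pdx1 and 0 to 30.4 CPM with MafA. Ddc was there at 1.01 to 4.53 CPM with Pdx1 and 36.6 to 100.6 CPM with MafA. Tph1 was at 0 to 0.674 CPM with Pdx1 and 5.35 to 213 CPM with MafA. All 3 genes were called in the fit of passage 2 alone (adjusted p = 0.029, 0.029 and 0.0368 by edgeR), in which 37 genes in all were called. At passage 5, with 2 samples a group, Ddc was at 9.51 and 0.955 CPM with Pdx1 against 0.302 and 42.9 CPM with MafA, which overlap. Tph1 was there at 0 and 3.98 CPM with Pdx1 and at 0 in both samples with MafA, so its order was not that of passage 2. Th was at 0.164 and 65.9 CPM with Pdx1 and at 0 in both with MafA.

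**Figure D4:**
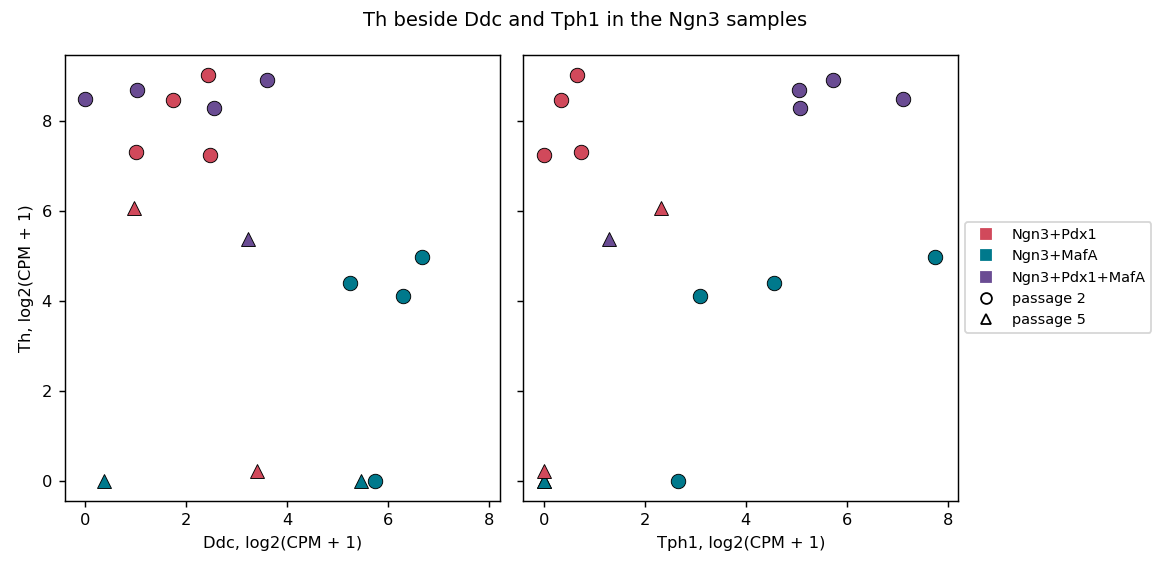
Level of Th (vertical axis) against Ddc (left) and Tph1 (right) in the 17 Ngn3 samples, all as log2(CPM + 1), coloured by combination; circles are passage 2 and triangles passage 5. On the left the Ngn3+MafA circles sit at high Ddc (36.6 to 100.6 CPM) and low Th (0 to 30.4 CPM), and the Ngn3+Pdx1 circles at the opposite corner; on the right the circles of the 3 factors are high for both genes.

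A sample could hold the transcripts of a whole pathway. Tph1 and Ddc, the pair needed for serotonin, both had over 3 counts in 11 of 17 Ngn3 samples and in 0 of 15 others. Th and Ddc, the pair needed for dopamine, did so in 11 of 17 and in 0 of 15. All 3 genes passed 3 counts in 10 of the 17. These are pools of 50 cells, so the transcripts need not have been in the same cells. Per kilobase of exon, the Th level was above that of Tph1 in 13 of 17 Ngn3 samples, with medians of 27.9 and 0.644 CPM per kilobase.

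The phospho-mutant form made no called difference. In 6SA against WT Ngn3, over the 3 combinations, 0 of 8 genes were called, beside 0% of all genes. At an unadjusted p under 0.05 there were 0 of the 8 genes and 1422 of all genes by edgeR, and DESeq2 called 0 of the 8. The 3 largest fitted differences were 2.13 ± 1.23 for Maob (95% interval -0.29 to 4.55), 1.64 ± 1.10 for Tph1 (-0.52 to 3.80) and 1.24 ± 0.61 for Slc18a1 (0.03 to 2.44), and all 3 had an adjusted p of at least 0.851 by edgeR. The interval of Slc18a1 leaves out 0 although its unadjusted p was 0.0537 by edgeR, because the intervals are normal ones built on the SE. For Th the difference was 0.76 ± 0.81 (-0.83 to 2.35) and for Ddc 0.75 ± 0.74 (-0.70 to 2.21). The intervals are wide, and they do not show that the forms act alike. The effect of Ngn3 was also compared between 6SA and WT cultures, and 0 of 8 genes passed, beside 0% of all genes (0 of 8 and 647 genes at an unadjusted p under 0.05 by edgeR, 0 of 8 by DESeq2). Pdx1 against MafA without Ngn3 likewise gave 0 of 8 genes, beside 0% of all genes (0 of 8 and 675 genes at an unadjusted p under 0.05 by edgeR, 0 of 8 by DESeq2). In this comparison and the one before it, Ddc and Tph2 had no usable value by edgeR, because conditions were at 0 counts.

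The transporters were expressed with and without Ngn3. Slc18a1, which encodes VMAT1, the transporter of endocrine and chromaffin cells (chromosome 8, 69037711 to 69089235, minus strand), was highest with the 3 factors, at 19.0, 22.4 and 4.12 CPM in WT and at 28.3 and 33.4 CPM in 6SA. Ngn3+Pdx1 samples had 0.674 to 20.4 CPM (median 6.79) and Ngn3+MafA samples 0.454 to 16.8 CPM (median 6.18). Without Ngn3 the levels were 0 to 12.9 CPM (median 4.61), so only part of the Ngn3 samples, 7 of 17, lay above that range. The fitted log2 fold change over all combinations was 1.07 ± 0.46 and missed the threshold (adjusted p = 0.106 by edgeR), while DESeq2 called it and so did the fit of passage 2 alone (adjusted p = 0.0314 by edgeR). At passage 5 the 5 Ngn3 samples had 0.454 to 5.5003 CPM and the 3 others 3.61 to 10.02 CPM.

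Slc18a2, which encodes VMAT2, the transporter of monoamine neurons (chromosome 19, 59260896 to 59296012, plus strand), was detected in all 32 samples, at 6.56 to 33.6 CPM (median 13.9) with Ngn3 and 4.72 to 21.6 CPM (median 11.4) without. The fitted difference was 0.20 ± 0.24 with a 95% interval from -0.26 to 0.67. It shares 111 exonic bases with Gm29261 on the opposite strand, and the counting setting for strand is not given in the sources used here. Per kilobase of exon, Slc18a1 was above Slc18a2 in 7 of 17 Ngn3 samples and in 1 of 15 others, and in the 3-factor samples Slc18a1 was the higher of the pair in 4 of 5.

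Neither oxidase was called changed with Ngn3. Maoa, which prefers serotonin and noradrenaline (chromosome X, 16619698 to 16687818, plus strand), was at 1.61 to 19.1 CPM (median 6.05) with Ngn3 and at 0 to 14.0 CPM (median 8.44) without, a fitted difference of -0.16 ± 0.40 (95% interval -0.94 to 0.62). Maob, on the opposite strand beside it (chromosome X, 16709282 to 16817366), was at 0 to 17.1 CPM (median 0.930) with Ngn3 and at 0 to 10.5 CPM (median 0.616) without (0.85 ± 0.91, 95% interval -0.93 to 2.63). Maob was uneven between passages, with over 3 counts in 10 of 12 Ngn3 samples of passage 2 and in 0 of 5 of passage 5, where it did not pass 2 counts. Per kilobase of exon, Maoa was above Maob in 13 of 17 Ngn3 samples and in 10 of 15 others.

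Passage went with the levels of several of these genes. Within the Ngn3 samples, the mean of Th was 234 CPM ± 193 (SD, n = 12) at passage 2 and 21.3 CPM ± 30.5 (SD, n = 5) at passage 5, and that of Tph1 was 41.9 CPM ± 66.2 and 1.09 CPM ± 1.73. Ddc was closer, at 24.7 CPM ± 34.5 and 12.4 CPM ± 17.6, and Slc18a2 was at 12.4 CPM ± 5.57 and 17.7 CPM ± 9.59. These means are over unlike sets, because 6SA Ngn3+Pdx1+MafA replicate 3 of passage 5 was left out for its low total. Its only library had Th at 274 CPM and Tph1 at 22.02 CPM on plain totals, above these passage 5 means. Passage 5 also had less Neurog3 (as given above) and holds replicate 3 alone, so passage, Neurog3 level and replicate cannot be told apart. The part of each in these levels was not tested. In the fit of passage 2 alone, Th, Ddc and Tph1 kept their calls over all combinations (adjusted p = 7.79e-10, 1.47e-07 and 0.000334 by edgeR).

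The rest of the pathway is given from lists of other genes. Of the 8 genes of tetrahydrobiopterin, the cofactor of all 3 hydroxylases, 1 was higher and 2 lower with Ngn3 over all combinations. Of all genes tested, 11.1% were called higher and 10.5% lower in this comparison, which is the background for this and the following lists, and with lists this short a single call is near it. Qdpr, which regenerates the cofactor, was at 60.7 to 382 CPM (median 116) against 38.9 to 88.8 CPM (median 53.1), a log2 fold change of 1.35 ± 0.22 (adjusted p = 2.94e-05 by edgeR). Pts and Spr, which act in its synthesis, were lower by small amounts (-0.63 ± 0.19 and -0.53 ± 0.19, adjusted p = 0.0165 and 0.0479 by edgeR), and Gch1, the entry enzyme, had a log2 fold change of 0.92 ± 0.38 that missed the threshold (adjusted p = 0.0869 by edgeR) and was named after its values were seen. Of 5 carriers of aromatic amino acids, 2 were higher and 0 lower. Slc7a8 was at 0.306 to 114 CPM (median 18.1) against 0 to 2.43 CPM (5.51 ± 0.73, adjusted p = 2.04e-06 by edgeR), and Slc7a5 was at 32.3 to 107 CPM against 13.7 to 54.7 CPM (1.32 ± 0.17, adjusted p = 1.16e-06 by edgeR). Of 7 genes that divert tryptophan to kynurenine, 5 were tested and 0 were called either way by edgeR.

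Of 7 uptake transporters for monoamines, only Slc29a4, a low-affinity carrier of the plasma membrane, was abundant enough to test, and it was higher with Ngn3, at 25.8 to 506 CPM (median 115) against 10.02 to 33.3 CPM (median 25.02), a log2 fold change of 2.81 ± 0.32 (adjusted p = 2.35e-07 by edgeR). Of 8 other synthesis genes, 6 were tested and Gad1, which makes GABA, was the 1 called, higher at a median of 20.0 CPM against 0 (6.95 ± 0.84, adjusted p = 6.12e-07 by edgeR). Dbh and Pnmt, also named after their values were seen, which turn dopamine into noradrenaline and adrenaline, were too low to test, at no more than 0.405 CPM and 0 CPM in any Ngn3 sample. Of 6 genes that act after the oxidases, Aldh1b1 was higher (1.91 ± 0.61, adjusted p = 0.0244 by edgeR) and Aldh2 lower (-0.96 ± 0.22, adjusted p = 0.00171 by edgeR). Of 10 other vesicle loading genes, 7 were tested and 3 were higher with 0 lower, namely the synaptic vesicle proteins Sv2a (6.12 ± 0.94, adjusted p = 1.9e-05 by edgeR) and Sv2c (7.43 ± 1.28, adjusted p = 0.000146 by edgeR) and the glutamate transporter Slc17a7 (3.71 ± 0.97, adjusted p = 0.00765 by edgeR). Of 14 serotonin receptors, 6 were tested and Htr1b was the 1 called, higher at 0 to 9.68 CPM against 0 to 3.71 CPM (3.24 ± 0.75, adjusted p = 0.00209 by edgeR). Conditions without Ngn3 that had no count, 1 of 6 for Gad1, Sv2a and Htr1b and 4 of 6 for Sv2c and Slc17a7, make the size of these fold changes depend on a prior count.

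Among 9 transcription factors of serotonergic neurons and enterochromaffin cells, 8 were tested, 5 were higher with Ngn3 and 0 lower. Neurod1 was at 20.0 to 240.1 CPM against at most 0.349 CPM (10.33 ± 0.56, adjusted p = 4.77e-13 by edgeR). Insm1, a factor of endocrine precursors, was at 22.2 to 197 CPM against at most 1.80 CPM (7.70 ± 0.60, adjusted p = 2.44e-10 by edgeR). Nkx2-2 was higher at a lower level (6.83 ± 0.58, adjusted p = 2.04e-09 by edgeR), and so was Fev, the Pet1 factor of serotonergic neurons, at 0.151 to 32.5 CPM against at most 1.58 CPM (adjusted p = 2.7e-06 by edgeR). No fold is given for Fev, with 3 of 6 conditions without Ngn3 at 0 counts, and that of Nkx2-2 rests in part on 1 such condition. The fifth was Lmx1b, named after its value was seen. Of 6 genes of lactogen signalling, Ghr, the growth hormone receptor, was higher (2.23 ± 0.30, adjusted p = 2.46e-06 by edgeR), and Cish and Socs2, targets of this signalling, were lower (-1.35 ± 0.30 and -1.45 ± 0.29, adjusted p = 0.00142 and 0.000507 by edgeR). Prlr, the prolactin receptor, named after its values were seen, did not exceed 2.63 CPM in any sample.

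Cell types that make or carry monoamines were checked by their markers. Of 7 enterochromaffin markers, 4 were higher with Ngn3 (Chga, Chgb, Fev and Adra2a) and 0 lower, with a summed level of 259 to 12359 CPM in the Ngn3 samples and 0.361 to 12.2 CPM in the others, but Chga and Chgb, which carry most of that sum, mark endocrine cells in general. Of 8 mast cell markers, Cpa3, Fcer1a and Ms4a2 were at 0 in every sample, and Kit, the 1 called higher, carried nearly all of a summed 3.97 to 90.8 CPM against 0 to 9.91 CPM. Of 5 platelet markers, Pf4 and Ppbp were lower (summed 0.306 to 12.1 CPM against 1.18 to 43.1 CPM). Of 6 sympathetic and chromaffin markers (summed 0 to 202 CPM against 0 to 0.648 CPM) 2 could be tested and 0 were called over all combinations by edgeR. Phox2a was at 0 in every sample. Chrna3 was the 1 higher where Ngn3 was added to Pdx1 or to Pdx1+MafA. It was also higher in the 3 factors against Ngn3+Pdx1 and against Ngn3+MafA. The labelled duct epithelium was checked by duct markers, of which Krt19 was at 567 to 1524 CPM without Ngn3 and at 5.27 to 400.6 CPM with it, lower without overlap (-3.27 ± 0.38, adjusted p = 2.44e-07 by edgeR). Spp1 was lower too, at 63.8 to 13091 CPM against 6055 to 52233 CPM (-3.26 ± 0.38, adjusted p = 3.07e-07 by edgeR), as was Cftr (-2.82 ± 0.57, adjusted p = 0.000549 by edgeR), while Krt7, Sox9 and Epcam were detected in every sample and not called. In the 3 factors, Spp1 was also called lower against Ngn3+Pdx1 and against Ngn3+MafA, and Krt19 against Ngn3+Pdx1. Of the other lists, 4 glial markers had S100b lower and Sox10 at 0 (summed 0 to 10.95 CPM against 0.791 to 6.80 CPM), and 6 acinar markers had Cela1 lower and Pnliprp1 at 0 (0 to 9.71 CPM against 0.616 to 17.1 CPM). For mesenchyme (4 markers, 0 to 109 CPM against 0 to 13.2 CPM), endothelium (3 markers, 0 to 26.5 CPM against 0 to 0.280 CPM) and leukocytes (4 markers, Adgre1 at 0, 0 to 43.5 CPM against 1.23 to 18.2 CPM) there were 0 calls by edgeR. The part of these cell types in the levels of the 8 genes was not tested.

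The genes most like each of the 8 were those with the highest Pearson correlation of log2(CPM + 1) over the 17 Ngn3 samples, among 15124 genes with a mean of at least 1 CPM. The points share libraries, depth, combination and passage, so these values are descriptions with no test. Th was most like Pde3a (r = 0.970), Iapp (0.949) and Fam151a (0.935). Tph1 was most like Gsdma (0.899), Scn9a (0.875) and Syt4 (0.871), and Ddc most like Map3k14 (0.832), Mfge8 (0.811) and Gad1-ps (0.776). Slc18a1 was most like Pacsin1 (0.944), Bicdl1 (0.944) and Rom1 (0.925). The 3 closest to Slc18a2 were Ddias, Med17 and Cul2 (0.884 to 0.861), to Maoa Dedd, Gm5869 and 4930563E22Rik (0.797 to 0.713) and to Maob Zfp41, Stat5a and Hadhb (0.848 to 0.820). Between members, Th went with Slc18a1 (r = 0.707), ran against Slc18a2 (-0.721) and ran against Ddc (-0.434).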

How the data were processed

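RNA-seq libraries were made from pools of sorted organoid cells. Per the submitters' processing notes and the study's methods, the authors aligned 50-base reads to mm10 with GSNAP and counted reads per gene of Ensembl release 81 with HTSeq 0.5.3p3, and the deposited values are raw counts per library, with no normalization. The strand setting of the counting is not given in the sources used here. Reads not assigned to a gene stayed out of library sizes (14.7% of all reads with no feature, 7.23% ambiguous and 19.8% not aligned).

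From there, 58 of 61 libraries were kept, those with over 1000000 counts on genes, under 25% spike-in counts (at most 0.396% was found) and over 10000 detected genes, and the technical repeats of each sample, 1 to 3, were summed. Symbols and GRCm38 positions came from the reference annotation for 45143 of 46078 identifiers. The filter on low values kept 24004 genes, namely those counted in at least 5 libraries whose log2(CPM + 1) had a variance above 0.001. All 12 conditions entered 1 edgeR 4.0.16 quasi-likelihood fit with TMM scaling in R 4.3.3, with Benjamini-Hochberg adjustment over all genes and a threshold of 0.05, and comparisons were averages of condition coefficients. Where conditions without a count pull against the others, such an average has no usable value. Where they all pull the same way it can be tested, but its size depends on a prior count. SE of fold changes are from that fit. Their intervals are normal ones built on the SE, and can be narrower than the test. Intervals of pooled ratios and limits from 3 counts cover counting error only, since reads carried no molecular identifiers. The steps were tested on simulated data. Tables were handled with Python 3.11.15, pandas 2.3.3, scipy 1.17.1 and matplotlib 3.10.9.

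The 8 genes and all gene lists were chosen with earlier results of these data known. Of each list of other genes, those past the threshold over all combinations were named, at most the 4 with the lowest adjusted p, and genes named outside this rule are said to be. For likeness, the 3 genes of highest correlation were taken for each member with a mean of at least 1 CPM in Ngn3 samples. Alternatives were DESeq2 1.42.0, RLE size factors, edgeR's own gene filter or none, a replicate block, single technical repeats, all 61 libraries, passage 2 alone and each sample or replicate number left out. A single Ngn3 term and edgeR's current default were added after seeing the data. The duct marker list is given in part, and its summed level is not reported here.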

Additional observations from a re-analysis of the deposited data

Results flagged for a closer look

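Single samples stood apart in 10 of 42 groups of 4 to 10 samples (WT and 6SA cultures of a combination pooled), by the gap to the nearest sample as a share of the range. For normally distributed values chance gives about 1 such group in 20. These groups pool cultures and passages and some hold zeros, so that rate need not apply to them, and no explanation was tested.

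Of the 10, 5 were the lowest or highest sample at passage 5 among the synthesis genes and Slc18a1. WT Ngn3+Pdx1 replicate 3 had Th at 0.164 CPM where the other 5 samples had 65.9 to 519.5 CPM. WT Ngn3+Pdx1+MafA replicate 3 had Th at 40.5 CPM against 313 to 478 CPM, and Slc18a1 at 4.12 CPM against 19.0 to 33.4 CPM. WT Ngn3+MafA replicate 3 had Ddc at 0.302 CPM against 36.6 to 100.6 CPM. In the other direction, 6SA Ngn3+Pdx1 replicate 3 had Tph1 at 3.98 CPM against 0 to 0.674 CPM. Another sample of passage 5, 6SA MafA replicate 3, had Maoa at 0 CPM against 6.53 to 10.4 CPM.

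The other 4 were replicate 1 of passage 2, each above the rest. Tph2 was at 1.11 CPM in WT Ngn3+Pdx1 replicate 1 against 0 to 0.136 CPM, and at 0.224 CPM in 6SA Pdx1 replicate 1 where the other samples were at 0. Maoa was at 14.0 CPM in 6SA Pdx1 replicate 1 against 8.44 to 9.10 CPM. Maob was at 12.3 CPM in 6SA Ngn3+Pdx1 replicate 1 against 0 to 1.39 CPM.

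The 3 libraries left out for low totals were all of the 3 factors, and each held Th and Tph1 above the highest sample without Ngn3 (0.460 and 4.86 CPM). CPM of these libraries are on their plain totals on genes. The second library of 6SA replicate 2 had Th at 484 CPM (117 counts) and Tph1 at 24.8 CPM (6 counts). The library of 6SA replicate 3, the only one of that sample and of passage 5, had Th at 274 CPM (112 counts) and Tph1 at 22.02 CPM (9 counts). The first library of WT replicate 2 had Th at 249 CPM (156 counts) and Tph1 at 189 CPM (118 counts).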

How the results depend on the processing

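No result changed direction under any alternative. The number of the 8 genes called was 3 over all combinations and 3 for Ngn3 added to Pdx1+MafA, and with samples left out it ran from 2 to 4 in both. It was 2 for Ngn3 added to Pdx1 and ran from 0 to 2, and 2 for Ngn3 added to MafA and ran from 0 to 3. It was 1 for the 3 factors against Ngn3+Pdx1 (0 to 1) and 1 for the 3 factors against Ngn3+MafA (0 to 2), and 0 for Ngn3+Pdx1 against Ngn3+MafA (0 to 3). Without replicate 2 in all conditions, no gene was called for Ngn3 added to Pdx1 or to MafA, or in either comparison with the 3 factors, and Tph1 was lost for Ngn3 added to Pdx1+MafA. Without replicate 1, Th was lost over all combinations and for Ngn3 added to MafA (adjusted p = 1 in both by edgeR), where WT Ngn3+MafA was left at 0 counts, and Ddc was lost for Ngn3 added to Pdx1 (adjusted p = 0.0812 by edgeR).

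For Ngn3 added to Pdx1, 1 gene was called with the first technical repeat only and 1 with edgeR without the legacy setting, Ddc being lost in both. Settings that left out no sample called 2 to 3 genes for Ngn3 added to MafA. They called 3 to 4 for Ngn3 added to Pdx1+MafA and over all combinations. For Ngn3+Pdx1 against Ngn3+MafA, 1 gene was called by DESeq2 (Ddc), 3 without the gene filter, 3 without the legacy setting and 1 with the replicate block (Th). For the 3 factors against Ngn3+MafA, 3 genes were called by DESeq2 (Th, Ddc and Slc18a1), 4 without the gene filter, 3 without the legacy setting, 2 with all 61 libraries and 2 with the replicate block (Th and Ddc). For 6SA against WT Ngn3, 1 was called without the gene filter (Tph1), as was 1 for the difference in Ngn3 effect between cultures (Tph1). For the 3 factors against Ngn3+Pdx1, 0 were called with the replicate block, where Tph1 had a log2 difference of 4.47 (adjusted p = 0.0956 by edgeR). The cause of these changes was not tested. Same-numbered samples correlated over 0.1 in 12 of 14 pairs (-0.387 to 0.746), and 28 of 32 samples correlated best with their own number. The labels name the culture (WT or 6SA) and a replicate number. They do not say whether same-numbered samples were sorted from the same culture, and the main fit does not pair them.

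Depth limits Tph2, Maob and the reference levels of Th and Ddc, which rest on at most 6 counts a sample. With detection set at over 1 count in place of over 3, the samples without Ngn3 in which Th was detected went from 2 to 5 of 15 and those with Ddc from 0 to 1, and every other number of detected samples moved by at most 2. Passage is replicate 3, so a batch term for passage is part of the replicate block.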

Other observations

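Technical repeats of the same sample differed several-fold for some of the 8 genes. The sources used here do not say whether such repeats came from the same sorted cells or from separate pools. Among 8 Ngn3 samples with more than 1 library, a fold between the highest and lowest library was taken only where no library was at 0. Its median was 7.80 for Tph1 (at most 15.8), 3.70 for Maob, 3.04 for Maoa and 2.84 for Slc18a2. It was lower for Slc18a1 (1.89), Th (1.67) and Ddc (1.502, at most 11.9). These medians leave out the samples with a library at 0, such as 6SA Ngn3+Pdx1+MafA replicate 1 for Ddc (0 to 32.3 CPM), and so understate the spread. Of the 8 samples, those with a library at 0 and another over 9 counts numbered 1 for Tph1, 1 for Th and 1 for Slc18a2. They numbered 2 for Tph2, 2 for Ddc, 3 for Maoa, 3 for Maob and 0 for Slc18a1. Sums over repeats were used in all comparisons.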
